A study of Mus musculus with 15 samples.

Results

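Immediate-early genes are transcribed within minutes of a stimulus, before any new protein is made. The 10 described here were chosen by symbol: Fos, Fosb, Jun, Junb and Jund, which encode subunits of the transcription factor AP-1, Atf3, Egr1, Ier2, Ier5 and Btg2. They are 10 of 55536 genes in the deposited count table, and all 10 were among the 13364 genes with enough reads to be tested. AP-1 is a dimer of basic leucine zipper proteins, most often a FOS with a JUN protein, and EGR1 is a zinc finger transcription factor. In blood these genes respond to activation of leukocytes, to adhesion, to stress and to the handling of the sample, and JunD differs from its relatives in that it is widely present in resting cells.

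Blood of male wild-type C57Bl/6 mice aged 10 months was profiled by bulk sequencing of total RNA, with 1 library for each animal, and the labels name no blood fraction. The mothers of 8 animals received tributyltin (TBT), an organotin and ligand of the RXR and PPAR gamma receptors, in their drinking water at 0.5 mg per kg body weight a day (3.07 µM) until weaning. The mothers of 7 animals were vehicle controls. The animals therefore met TBT through the mother and not as adults, the labels record a liver tumor in vehicle 3, and they do not say which animals were littermates. The libraries held 6.03 M to 11.99 M counts, and the members' counts were between 3 (Atf3 in TBT 8) and 2480 (Jund in TBT 3).

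Markers of neutrophils, monocytes, B cells, T cells, NK cells, platelets and red cells were read in every library, as belongs to blood. The libraries TBT 2 and TBT 8 stood apart in their scaling factors (TMM, the trimmed mean of M values that edgeR uses to balance composition), which were 0.404 and 0.528, against 0.736 to 1.58 in the other libraries. Haemoglobin took 50.8% of the counts in TBT 2 and 44.5% in TBT 8, and 28.7% to 44.1% in the other libraries, of which vehicle 4 was the highest. Summed platelet markers reached 11408 and 11418 CPM on the TMM scale in those libraries and 1883 to 3470 CPM in the other 6 TBT libraries, against 2016 to 5508 CPM in vehicle. In CPM of all counts they were 4598 in TBT 2, 6011 in TBT 8 and 2024 to 4874 in the other TBT libraries, against 2741 to 5628 in vehicle, so that TBT 2 lay within the range of the others on that base. CPM here is on the TMM-scaled library size unless the base is named as all counts. Markers of hepatocytes were also read, with 1 of 5 found in every library. Their sum ran from 0.95 to 497 CPM in TBT, against 3.29 to 808 CPM in vehicle. They were left out of the relations with marker lists given below. Since blood is a mixture of cells, fewer cells of a type and less RNA per cell cannot be told apart in any value given here.

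The members have compact gene models. Jun, Jund, Ier2 and Ier5 have a single exon in every annotated transcript, 4 of 10 members, against 1.71% of the tested protein-coding genes. The median exon length of the members was 2547 bases, against 4119 bases over the tested genes. In GRCm38, Fos (ENSMUSG00000021250) lies on chromosome 12 at 85473890 to 85477273, Jun (ENSMUSG00000052684) on chromosome 4 at 95049034 to 95052222, and Fosb (ENSMUSG00000003545) on chromosome 7 at 19302696 to 19310051. Chromosome 8 holds Jund (ENSMUSG00000071076) at 70698949 to 70700616, Ier2 (ENSMUSG00000053560) at 84661331 to 84662852 and Junb (ENSMUSG00000052837) at 84974484 to 84978718. Chromosome 1 holds Btg2 (ENSMUSG00000020423) at 134075170 to 134079120, Ier5 (ENSMUSG00000056708) at 155096361 to 155099636 and Atf3 (ENSMUSG00000026628) at 191170296 to 191218039. Whether the counting used strand is unknown, so overlap with antisense genes may have affected some members' counts, and the effect was not tested. Exons of Junb overlap the antisense peroxiredoxin gene Prdx2, which had 1505 to 5517 counts a library. Exons of Jun overlap the antisense RNA gene Junos, which had 1 to 18, and those of Jund the antisense Gm11175, which had 0.

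The promoters of Jun, Junb and Atf3, whose levels moved together over the animals as described further on, are shown with those of Fos and Btg2. Each is the RefSeq window (GRCm38.p6) from 250 bases before the RefSeq start to 50 bases after it, on the gene's strand, and capitals mark letters within 1 mismatch of the cyclic AMP response element TGACGTCA, the palindromic site of CREB and ATF dimers. The windows are chr4:95052173-95052472 (minus strand) for Jun, chr8:84978699-84978998 (minus) for Junb, chr1:191183284-191183583 (minus) for Atf3, chr12:85473640-85473939 (plus) for Fos and chr1:134079106-134079405 (minus) for Btg2. The Atf3 window surrounds a start inside the gene span given above, whose upstream end is that of a longer annotated transcript.
Jun: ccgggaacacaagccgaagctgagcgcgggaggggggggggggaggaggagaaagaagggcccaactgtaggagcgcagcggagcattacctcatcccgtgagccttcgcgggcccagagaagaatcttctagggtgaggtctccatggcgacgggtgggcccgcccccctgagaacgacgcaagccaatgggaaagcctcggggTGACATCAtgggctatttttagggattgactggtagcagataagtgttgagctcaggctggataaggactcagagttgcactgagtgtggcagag
Junb: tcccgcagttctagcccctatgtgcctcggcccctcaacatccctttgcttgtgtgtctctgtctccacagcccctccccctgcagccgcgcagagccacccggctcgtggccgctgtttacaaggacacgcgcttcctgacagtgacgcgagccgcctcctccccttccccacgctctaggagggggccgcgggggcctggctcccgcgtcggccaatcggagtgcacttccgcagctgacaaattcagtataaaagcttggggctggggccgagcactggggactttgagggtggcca
Atf3: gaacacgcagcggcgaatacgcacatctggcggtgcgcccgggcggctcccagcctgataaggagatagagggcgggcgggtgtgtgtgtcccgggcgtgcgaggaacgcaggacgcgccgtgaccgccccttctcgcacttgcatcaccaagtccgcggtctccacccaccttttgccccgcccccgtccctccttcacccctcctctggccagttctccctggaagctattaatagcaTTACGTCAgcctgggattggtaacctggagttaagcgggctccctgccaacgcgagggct
Fos: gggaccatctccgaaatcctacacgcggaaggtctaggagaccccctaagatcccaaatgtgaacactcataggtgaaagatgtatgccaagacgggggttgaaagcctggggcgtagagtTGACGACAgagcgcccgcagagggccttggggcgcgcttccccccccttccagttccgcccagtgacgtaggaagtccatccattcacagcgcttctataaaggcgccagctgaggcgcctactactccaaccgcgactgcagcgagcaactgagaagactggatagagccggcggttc
Btg2: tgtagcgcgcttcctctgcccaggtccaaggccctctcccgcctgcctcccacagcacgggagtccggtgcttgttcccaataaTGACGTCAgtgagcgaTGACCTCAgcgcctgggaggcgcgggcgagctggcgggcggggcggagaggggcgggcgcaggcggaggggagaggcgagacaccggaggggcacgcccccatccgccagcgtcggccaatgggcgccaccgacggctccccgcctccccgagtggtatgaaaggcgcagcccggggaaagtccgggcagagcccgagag

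A stretch within 1 mismatch of TGACGTCA stood in 4 of 8 member windows, those of Jun, Atf3, Fos and Btg2, against 12.5% of 32851 windows of that length. In Jun it was TGACATCA, beginning 45 bases before the start, in Atf3 TTACGTCA 10 bases before it, and in Fos TGACGACA 129 bases before it. Btg2 held the exact TGACGTCA 166 bases before the start, which 1.79% of all windows have, and TGACCTCA 150 bases before it. The AP-1 site TGANTCA (7.81% of all windows) and the CArG box of serum response factor (1.63%) matched 0 of the 8 member windows. CCAAT, searched on both strands, stood in those of Jun, Junb, Atf3, Ier5 and Btg2 (37.4% of all windows), and TATAAA, searched on both strands, in those of Fos and Junb (13.6%). TATAAA began 33 bases before the start in Fos, but at base 1, the start itself, in Junb. The CCAAT match of Atf3 began at base 6, past the start. A match is a run of letters and not a measured binding site, and these windows reach only 250 bases upstream. The Jund window follows a RefSeq start upstream of the GENCODE gene model and was not printed, and Egr1 and Ier2 were not analysed here. That Jund window is counted among the 8, so its lack of matches does not describe the sequence at the GENCODE start.

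Per length, the members spanned a wide range in blood, with Jund far above the rest. Mean RPKM (CPM on the TMM-scaled library divided by the exon length in kilobases) over the 15 libraries was 125 ± 67.4 for Jund, 20.7 ± 2.40 for Btg2, 14.9 ± 3.34 for Junb, 10.6 ± 2.08 for Ier2, 10.1 ± 1.80 for Ier5, 4.55 ± 2.24 for Fos, 2.12 ± 0.646 for Jun, 1.40 ± 0.617 for Atf3, 1.19 ± 0.401 for Egr1 and 0.258 ± 0.155 for Fosb (SD, n = 15). Jund exceeded Btg2, and Btg2 exceeded Junb, in RPKM in 15 of 15 libraries. Neighbours that did not separate were Ier2 and Ier5, with Ier2 higher in RPKM in 8 of 15 libraries, and Atf3 and Egr1, with Atf3 higher in 9 of 15. Fos lay above Jun in RPKM in 15 of 15 libraries, and the JUN members were thus ordered Jund, Junb, Jun.

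Setting TBT beside vehicle asks whether these genes still differed in adult offspring of exposed mothers. None of the 10 passed the test. Fitted values were lower in TBT for 8 of the 10 and higher for Jund and Atf3, with log2 fold changes between -0.39 (Fosb) and 0.20 (Jund) and a median of -0.17, against a median of 0.05 over all tested genes. edgeR's quasi-likelihood test, with Benjamini-Hochberg adjustment over 13364 genes at 0.05, called 0 members and 0 genes in all (0% of tested genes), and the members' adjusted p ran from 0.789 (Ier5) to 0.997 (Atf3). At an unadjusted p under 0.05 there were 0 of 10 members, against 6.33% of all tested genes (846), and DESeq2 and limma-voom, which called 0.142% and 0.165% of all genes, called 0 members each. A fitted value lower in TBT was found for 40.6% of all tested genes and a higher value for 59.4%. Some members moved together over animals, so the 10 are not independent genes. The ranges of TBT and vehicle overlapped for all 10 members, as they did for all but 0.112% of tested genes.

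**Figure D1:**
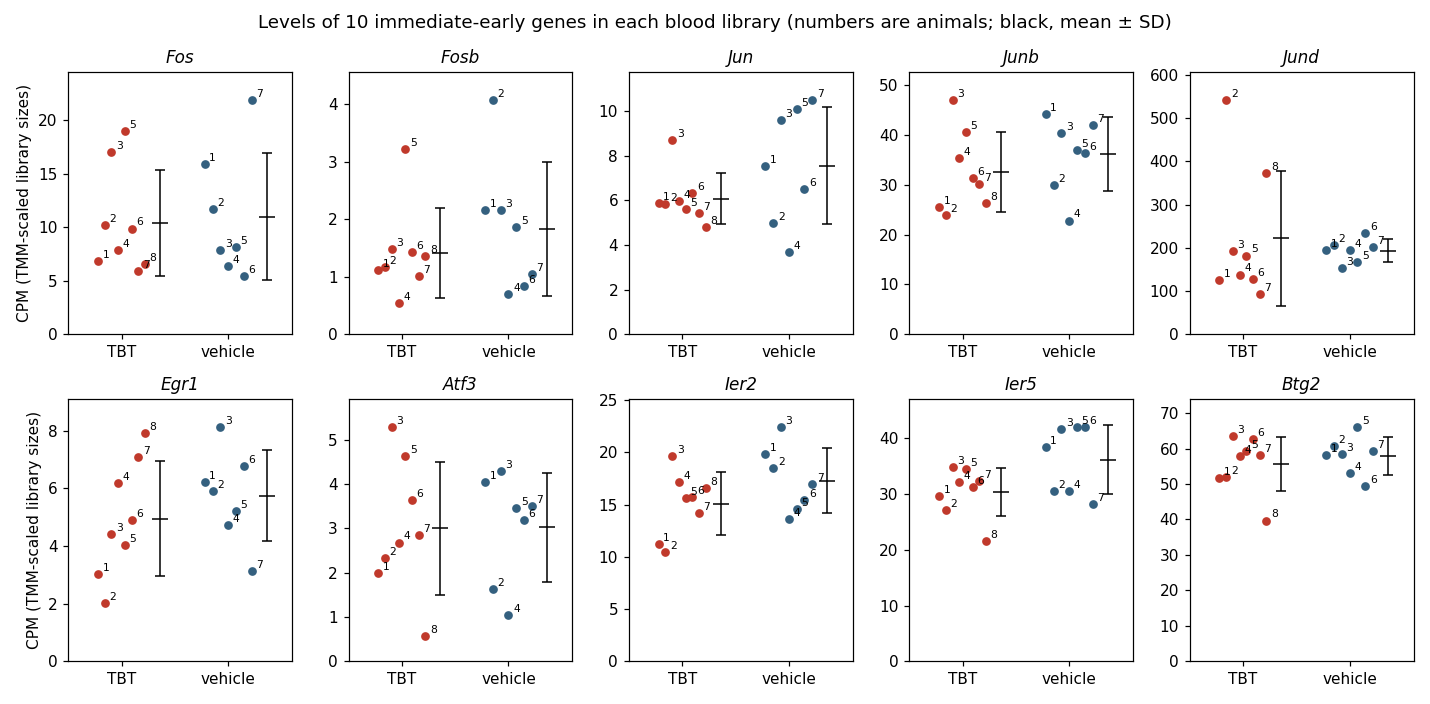
Level of each of the 10 genes in CPM on TMM-scaled library sizes (vertical axis from 0, a scale for each panel) in 8 TBT and 7 vehicle libraries. Points are animals with their numbers, and black bars give the mean ± SD; the groups overlap in every panel, and Jund in TBT 2 (542 CPM) and TBT 8 (373 CPM) lies above all other libraries.

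The FOS members varied widely between animals. Fos, the prototype immediate-early gene, had a lowest level of 5.89, a median of 8.87 and a highest level of 19.0 CPM in TBT, against 5.40, 8.16 and 21.9 CPM in vehicle. The high libraries were TBT 5 and TBT 3 (19.0 and 17.0 CPM), against vehicle 7 and vehicle 1 (21.9 and 15.9 CPM), so each group had a few high animals over a low majority. Means were 10.4 ± 4.97 CPM (SD) over the 8 TBT animals, against 11 ± 5.98 CPM (SD) over the 7 vehicle animals, a log2 fold change of -0.06 (SE 0.330, 95% interval -0.77 to 0.64, edgeR adjusted p = 0.994). The estimate was 0.18 without vehicle 7, and also above 0 without TBT 1, TBT 7 or vehicle 1.

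Fosb, whose protein replaces FOS in some AP-1 dimers, was the scarcest member, with 4 to 39 counts a library. It ranged from 0.537 to 3.21 CPM in TBT (median 1.26) and from 0.692 to 4.07 CPM in vehicle (median 1.86). TBT 5 stood above the other TBT libraries, and vehicle 2 above the other vehicle libraries. The log2 fold change was -0.39 (SE 0.387, edgeR adjusted p = 0.960), with 1 of 8 TBT libraries above the vehicle median, and it was between -0.72 and -0.09 with each library left out in turn.

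Jun, the partner of FOS in the classical AP-1 dimer, lay in a narrow band in TBT and a wide one in vehicle. The lowest, median and highest levels were 4.82, 5.86 and 8.70 CPM in TBT, against 3.69, 7.53 and 10.5 CPM in vehicle. TBT 3 alone lay above the other TBT libraries, while vehicle 3, vehicle 5 and vehicle 7 lay above every TBT library. Means were 6.07 ± 1.15 CPM (SD) over the 8 TBT animals, against 7.56 ± 2.64 CPM (SD) over the 7 vehicle animals, and 1 of 8 TBT libraries exceeded the vehicle median. The log2 fold change of -0.31 (SE 0.202, 95% interval -0.73 to 0.12) did not pass (edgeR adjusted p = 0.872).

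Junb, an AP-1 subunit that opposes JUN at some promoters and restrains growth of myeloid cells, ranged from 23.9 to 47.0 CPM in TBT (median 30.7) and from 22.8 to 44.1 CPM in vehicle (median 37.0). TBT 3 and vehicle 1 were the highest of their groups, TBT 2 and vehicle 4 the lowest. The means were 32.5 ± 8.01 CPM (SD) over the 8 TBT animals, against 36.1 ± 7.42 CPM (SD) over the 7 vehicle animals, and differed by less than 1 SD, with a log2 fold change of -0.14 (SE 0.158, edgeR adjusted p = 0.964).

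Jund was unlike the other members in TBT 2 and TBT 8. On TMM-scaled libraries it reached 542 CPM in TBT 2 and 373 CPM in TBT 8 and lay between 93.3 and 193 CPM in the other 6 TBT libraries, against 152 to 234 CPM in vehicle (median 195). TBT 2 and TBT 8 thus lay far over the vehicle range, 4 TBT libraries lay under it, and TBT 3 and TBT 5 lay within it. Means were 222 ± 156 CPM (SD) over the 8 TBT animals, against 193 ± 26.8 CPM (SD) over the 7 vehicle animals, with a log2 fold change of 0.20 (SE 0.319, 95% interval -0.47 to 0.87, edgeR adjusted p = 0.977). Without TBT 2 the log2 fold change was -0.13, and without TBT 2, TBT 8 and vehicle 6 it was -0.38 (edgeR unadjusted p = 0.0204, adjusted p = 0.198), and the difference passed in neither fit. Those 3 libraries had the lowest TMM factors (0.404, 0.528 and 0.736). TBT 2 and TBT 8 were also the highest TBT libraries for Jund, so leaving them out by itself lowers the TBT value. Vehicle 6 was the highest vehicle library. TBT 2 was the only single library whose omission turned the sign. With all 15 libraries the sign also turned on library totals (-0.01). It turned too with the replicate number as a block (-0.19). In that fit TBT 8 does not bear on the difference, since no vehicle animal has its number. Without those 3 libraries 2305 of 13590 tested genes had an unadjusted edgeR p under 0.05, against 846 of 13364 in the main fit. After adjustment 0.0515% of all genes were called, and 0 members. Limma-voom with sample quality weights likewise gave -0.31 (adjusted p = 0.40).

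Scaled to all counts of the library, Jund was the steadiest member, with 218 CPM in TBT 2, 196 CPM in TBT 8 and 147 to 234 CPM in the other 6 TBT libraries, against 156 to 216 CPM in vehicle, and its highest level was 1.59 times its lowest. On that base the other 9 members differed by 4.38-fold (Btg2) to 19.5-fold (Atf3) between the highest and the lowest library. Of these, Btg2 had 21.0 CPM in TBT 2 and 20.9 CPM in TBT 8, against 36.2 CPM or more in every other library, and Ier5 at 10.9 and 11.4 CPM, against 24.5 CPM or more. Most leukocyte markers were low in the same libraries on that base. Summed B cell markers had 137 CPM in TBT 2 and 214 CPM in TBT 8, against 517 CPM or more elsewhere, and neutrophil markers 251 and 189 CPM, against 428 CPM or more. T cell markers had 34.8 and 30.0 CPM there, against 54.6 CPM or more, and NK cell markers 18.5 and 24.7 CPM, against 28.7 CPM or more. Monocyte markers had 376 CPM in TBT 2 and 501 CPM in TBT 8, against 446 CPM or more, so TBT 8 lay within the range of the others. Jund made up 80.0% and 74.8% of the summed CPM of the 10 genes in TBT 2 and TBT 8, and 37.3% to 49.4% in the other TBT libraries, against 43.8% to 58.7% in vehicle. Summed red cell markers, 6 of 6 read in every library, were 532372 and 469311 CPM of all counts in TBT 2 and TBT 8 and 300484 to 392010 in the other TBT libraries, against 306088 to 461036 in vehicle. On the TMM scale the red cell sum was 1320814 and 891419 CPM in TBT 2 and TBT 8 and 190741 to 364803 in the other TBT libraries, against 225166 to 573356 in vehicle. The part of these cell types in the members' levels in TBT 2 and TBT 8 was not tested.

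**Figure D2:**
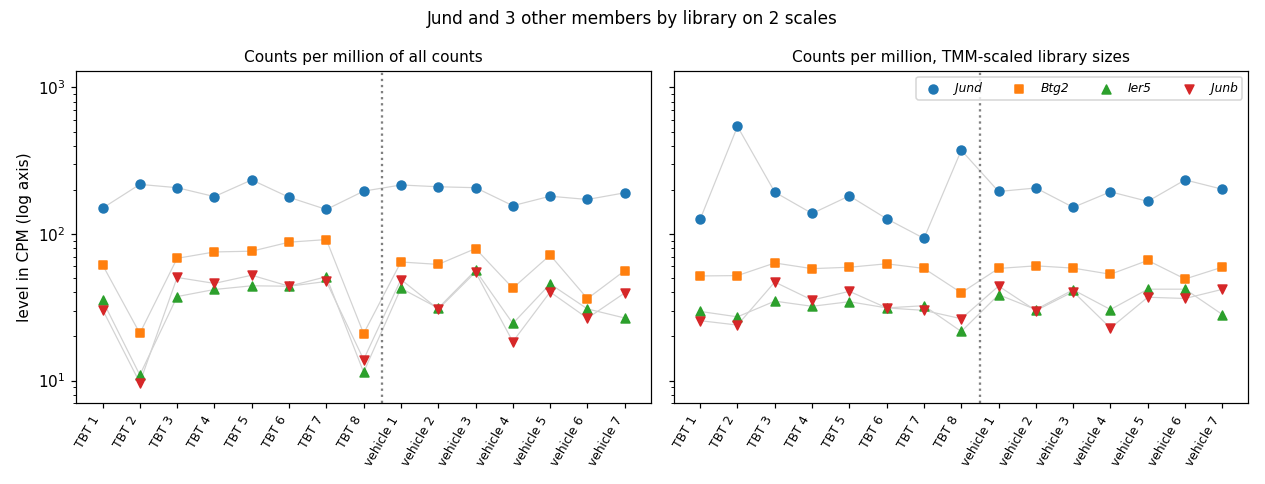
Levels of Jund, Btg2, Ier5 and Junb in each library (horizontal axis, TBT left of vehicle) in CPM of all counts (left) and in CPM on TMM-scaled library sizes (right), on log axes. In TBT 2 and TBT 8, Btg2, Ier5 and Junb are low in CPM of all counts while Jund is not, and on the TMM scale Jund reaches 542 and 373 CPM.

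Over the 13 libraries other than TBT 2 and TBT 8, a choice made after these levels had been seen, log2 CPM of Jund moved with the log2 sum of the red cell markers. Pearson's r was 0.798 (permutation p = 0.00091, adjusted p = 0.0637 over 70 relations of the 10 genes with 7 marker lists) and Spearman's rho 0.835 (permutation p = 0.00071, adjusted p = 0.0497). Pearson's r was 0.779 without TBT 7 and vehicle 4, the libraries farthest from the median, 0.733 within the 6 TBT libraries and 0.742 within the 7 vehicle libraries. Only the rank correlation passed the adjustment, and both levels share the library's scaling factor. The relation was computed on the TMM scale alone and was not tested on all counts. On that base vehicle 4, with the most haemoglobin of the 13 (44.1%), had the lowest vehicle level of Jund (156 CPM). TBT 5 had the highest Jund (234 CPM) at 31.6% haemoglobin, while TBT 7 was lowest in both (147 CPM and 28.7%). The next relations, also not past the adjustment, were Fos with the B cell markers (r -0.74, adjusted permutation p = 0.105) and Junb with the monocyte markers (r 0.734, adjusted permutation p = 0.105). The monocyte list includes Nr4a1 (28.5 to 115 CPM in TBT, against 31.5 to 102 CPM in vehicle), itself an immediate-early gene. That sum is therefore not a measure of monocytes alone. The genes most like Jund over 15 libraries, among 7899 with a mean of at least 5 CPM, were Iscu (Pearson's r 0.989), which encodes the scaffold of iron-sulfur cluster assembly, Tmcc2 (0.982), Dcaf12 (0.982), Epb41 (0.981), which encodes protein 4.1 of the red cell membrane skeleton, and Fam117a (0.981). With TBT 2 and TBT 8 left out, r with Jund was still 0.965 for Iscu, 0.942 for Tmcc2, 0.942 for Dcaf12, 0.940 for Epb41 and 0.954 for Fam117a. These genes were picked for their likeness, so the values describe these libraries.

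Egr1 and Atf3 were read at a few CPM. Egr1 (ENSMUSG00000038418), which is induced through serum response factor and drives further response genes, ranged from 2.04 CPM in TBT 2 to 7.91 CPM in TBT 8 (median 4.66), against 3.15 CPM in vehicle 7 to 8.12 CPM in vehicle 3 (median 5.92). Its means were 4.95 ± 2.00 CPM (SD) over the 8 TBT animals, against 5.74 ± 1.58 CPM (SD) over the 7 vehicle animals, with a log2 fold change of -0.21 (SE 0.240, edgeR adjusted p = 0.964). Atf3, a stress-induced member of the CREB and ATF family that represses inflammatory genes, ranged from 0.579 CPM in TBT 8 to 5.28 CPM in TBT 3 (median 2.77), against 1.04 CPM in vehicle 4 to 4.30 CPM in vehicle 3 (median 3.46). Its mean was 3.00 ± 1.5 CPM (SD) over the 8 TBT animals, against 3.02 ± 1.23 CPM (SD) over the 7 vehicle animals, with a log2 fold change of 0.02 and a 95% interval of -0.68 to 0.73 (edgeR adjusted p = 0.997). The sign of that estimate turned when TBT 3, TBT 5, TBT 6, vehicle 2 or vehicle 4 was left out.

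Of the remaining members, Ier5 had the smallest p of the 10. Ier5, an immediate-early gene linked to the heat shock factor HSF1, ranged from 21.6 to 34.8 CPM in TBT (median 31.7) and from 28.2 to 42.0 CPM in vehicle (median 38.5). All 8 TBT libraries lay under the vehicle median, while vehicle 2, vehicle 4 and vehicle 7 lay within the TBT range. Means were 30.4 ± 4.34 CPM (SD) over the 8 TBT animals, against 36.2 ± 6.18 CPM (SD) over the 7 vehicle animals, a log2 fold change of -0.25 (SE 0.119, 95% interval -0.50 to 0.00, edgeR unadjusted p = 0.0527 and adjusted p = 0.789), which ranked 892 among 13364 genes. The unadjusted edgeR p was 0.0365 with DESeq2's size factors, 0.0470 with upper-quartile scaling and 0.0387 without haemoglobin genes, and that of DESeq2 was 0.0347. In these fits the log2 fold changes were -0.25 to -0.27 and the edgeR or DESeq2 adjusted p 0.563 to 0.902. Thus 1 of 10 members lay under 0.05 there, as did 887, 735, 840 and 1063 of 13364 genes (13372 without haemoglobin genes). The unadjusted edgeR p of Ier5 was 0.0526 with a stricter low-count filter and 0.0615 without the filter. It was 0.0940 with limma-voom, and in edgeR 0.101 with the replicate block and 0.768 on library totals. The difference was -0.09 on library totals and -0.13 without TBT 2, TBT 8 and vehicle 6.

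Ier2, a short nuclear protein gene, averaged 15.1 ± 3.02 CPM (SD) over the 8 TBT animals (range 10.5 to 19.6), against 17.3 ± 3.11 CPM (SD) over the 7 vehicle animals (range 13.6 to 22.4). Its log2 fold change was -0.19 (SE 0.139, edgeR adjusted p = 0.891), with TBT 1 and TBT 2 below every vehicle library. Btg2, an antiproliferative gene that p53 also induces and whose protein promotes shortening of mRNA tails, was the most even member on the TMM scale, at 55.6 ± 7.70 CPM (SD) over the 8 TBT animals (range 39.7 to 63.4), against 57.9 ± 5.36 CPM (SD) over the 7 vehicle animals (range 49.3 to 66.0). Its log2 fold change of -0.06 had the narrowest interval of the 10, -0.27 to 0.16 (edgeR adjusted p = 0.979).

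**Figure D3:**
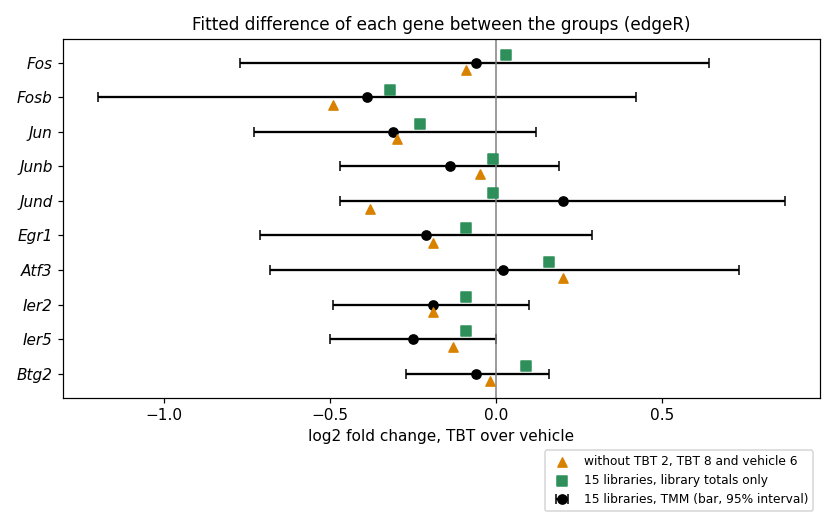
Fitted log2 fold change of TBT over vehicle for each gene (horizontal axis) from edgeR over 15 libraries with 95% intervals, with estimates on library totals and without TBT 2, TBT 8 and vehicle 6. The upper end of the Ier5 interval lies at 0.00 after rounding, and the others span 0 more widely; Jund moves from 0.20 to -0.38 when the 3 libraries are left out.

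The spread between animals differed among the members. The biological coefficient of variation from edgeR was 0.470 for Fosb, 0.434 for Fos, 0.426 for Jund and 0.422 for Atf3, against trend values of 0.359, 0.261, 0.310 and 0.318 at their abundance. It was 0.164 for Btg2, 0.176 for Ier5, 0.193 for Ier2 and 0.226 for Junb, under the median of 0.231 over tested genes. Egr1 (0.298) and Jun (0.263) lay between. The animal labelled with a tumor, vehicle 3, had the highest vehicle level of Egr1, Atf3 and Ier2 and the lowest of Jund, and was not tested against the other vehicle animals. TBT 3 had the highest TBT level of 6 of the 10 genes, and vehicle 4 the lowest vehicle level of 5.

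Jun, Junb and Atf3 moved together over animals. Over 45 pairs of the 10 genes, 34 had a positive Pearson's r of log2 CPM across 15 libraries, with a median of 0.323, and 6 passed a permutation test adjusted over the pairs (Benjamini-Hochberg at 0.05). Junb and Atf3 had an r of 0.797 (adjusted permutation p = 0.0063) and a rho of 0.879 (adjusted permutation p = 0.00135), with r 0.798 without TBT 2 and vehicle 4, 0.708 within TBT and 0.969 within vehicle. Jun and Junb had an r of 0.756 (adjusted permutation p = 0.0233) and a rho of 0.750 (adjusted permutation p = 0.0416), with r 0.774 without vehicle 5 and vehicle 7, 0.657 within TBT and 0.877 within vehicle. These were the only pairs past the adjustment in both measures. In Pearson's r alone Junb with Ier2 (0.723), Jun with Atf3 (0.708), Atf3 with Ier5 (0.713) and Atf3 with Btg2 (0.745) also passed (adjusted permutation p = 0.0233 each).

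The relations of Atf3 with Ier5 and Btg2 leaned on TBT 8 and vehicle 4, without which r was 0.515 and 0.404. Junb with Ier2 had an r of 0.619 without TBT 2 and vehicle 4, and Jun with Atf3 one of 0.774 without vehicle 5 and vehicle 7. Egr1 was most like Ier2 (r 0.652, adjusted permutation p = 0.0566, not passed, and 0.224 without TBT 1 and TBT 2), and its r with Fos was -0.40. Jund had a median r of -0.25 with the other 9 genes over 15 libraries and of 0.236 over the 13 without TBT 2 and TBT 8. Within vehicle, which holds neither of those libraries, its r ran from -0.617 (Btg2) to -0.188 (Junb), except with Fos (0.0347). The sign of Jund's r thus depended on the set of libraries. No pair with Jund passed over the 15 libraries (lowest adjusted permutation p = 0.164). Within the groups, 3 pairs passed in TBT (exact permutation test) and 0 in vehicle. The highest r within TBT were those of Atf3 with Btg2 (0.966), Ier5 with Btg2 (0.952) and Atf3 with Ier5 (0.951). TBT 8 was the lowest TBT library of Atf3, Ier5 and Btg2 (0.579, 21.6 and 39.7 CPM). In the same order of pairs, r was 0.261, -0.0229 and 0.60 within vehicle. Over the 13 libraries without TBT 2 and TBT 8 it was 0.458, 0.0549 and 0.49. Pairs among Jun, Junb and Atf3 had an r of 0.657 to 0.708 within TBT. On library totals 35 of 45 pairs passed, in libraries among which TBT 2 and TBT 8 were low for most members.

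**Figure D4:**
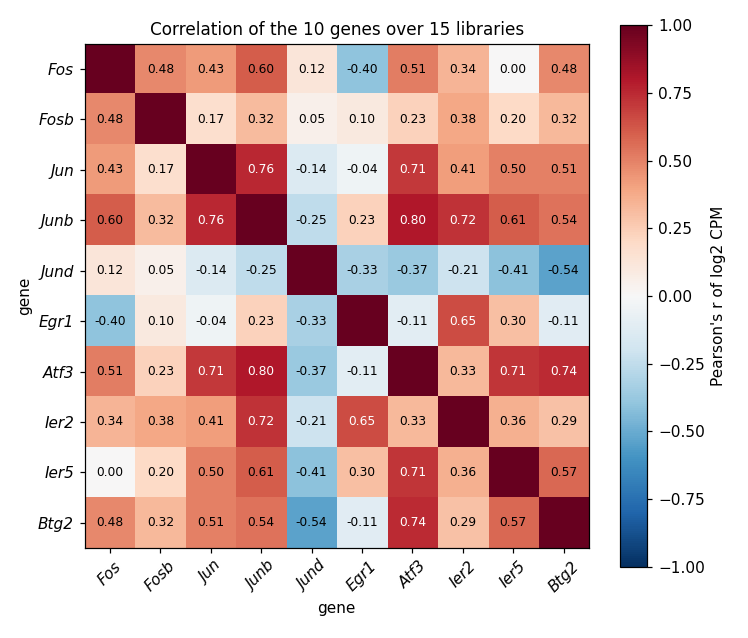
Pearson's r of log2 CPM (TMM-scaled) over 15 libraries for each pair of the 10 genes, from blue (-1) through white (0) to red (1), with the values printed. The pair of Junb and Atf3 has the highest value (0.80), and the row of Jund is mostly negative here and mostly positive without TBT 2 and TBT 8.

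By the same measure of likeness, the genes outside the members closest to Fos were Map3k7 (r 0.787), which encodes the kinase TAK1, the FOS-related AP-1 subunit gene Fosl2 (0.786), Noct (0.778), Aen (0.763) and Mapkapk3 (0.752). Those closest to Jun were Rangap1 (0.830), Nelfa (0.821), Gpatch11 (0.788), Pmpcb (0.750) and Selenon (0.742). For Egr1 they were Blmh (0.857), Rrp12 (0.856), Thumpd1 (0.852), Impdh1 (0.851) and Zbtb22 (0.843). These are the top 5 of 7899 genes each over 15 libraries and are given without a test.

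The wider immediate-early pathway was examined through 6 lists, and edgeR called 0 of their tested genes, with Nab2 and Rgs1 the only ones at an unadjusted p under 0.05, which 6.33% of all tested genes had. The counts of genes higher in TBT below stand beside a share of 59.4% over all tested genes, and are not tested against it. Of 8 tested genes for other AP-1 subunits and partners, 4 were higher and 4 lower in TBT (median log2 fold change -0.03). Fosl2 stood at 36.9 ± 8.49 CPM (SD) over the 8 TBT animals, against 33.8 ± 5.20 CPM (SD) over the 7 vehicle animals, above Fos in CPM in both groups, with a log2 fold change of 0.13 (adjusted p = 0.960). Mafk (-0.12) and Atf2 (0.11) were the others named by rule. Fosl1, Batf2 and Batf3 had too few reads to be tested.

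In the EGR family, 2 of 4 tested genes were higher and 2 lower (median 0.05). Nab2, which encodes a corepressor of EGR1, stood at 3.00 ± 0.704 CPM (SD) over the 8 TBT animals, against 4.03 ± 0.874 CPM (SD) over the 7 vehicle animals, with a log2 fold change of -0.39 (SE 0.184, edgeR unadjusted p = 0.0474, adjusted p = 0.779). Its relative Nab1 stood at 0.11 and Egr2 at 0.12 in log2 fold change, and Egr4 was not tested. Among serum response factor, its ternary complex partners and CREB factors, 6 of 9 were higher (median 0.01), and Srf itself had a log2 fold change of -0.16 (adjusted p = 0.864), Atf1 0.09 and Elk4 0.11.

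Of 9 stress kinases that act on JUN and ATF proteins, 7 were higher in TBT (median 0.11). Mapk8, which encodes the JUN kinase JNK1, stood at 14.4 ± 3.05 CPM (SD) over the 8 TBT animals, against 11.6 ± 2.64 CPM (SD) over the 7 vehicle animals, a log2 fold change of 0.32 (SE 0.157, edgeR unadjusted p = 0.0593, adjusted p = 0.803). Its upstream kinases Map2k4 and Map2k7 stood at 0.17 and -0.17. Of 29 other immediate-early genes 12 were higher and 17 lower (median -0.03). Rgs1, a regulator of G protein signalling, had a log2 fold change of 0.62 (SE 0.294, edgeR unadjusted p = 0.0483, adjusted p = 0.780), at 2.30 ± 0.627 CPM (SD) over the 8 TBT animals, against 1.45 ± 0.791 CPM (SD) over the 7 vehicle animals. The phosphatase gene Dusp5 (0.37) and Klf10 (0.28) were the others named by rule. Of 6 tested heat shock genes, 5 were higher (median 0.10), with Dnajb1 at 0.20, Hsp90aa1 at 0.16 and Hsph1 at 0.15, and Hspa1a and Hspa1b had too few reads to be tested.

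**Figure D5:**
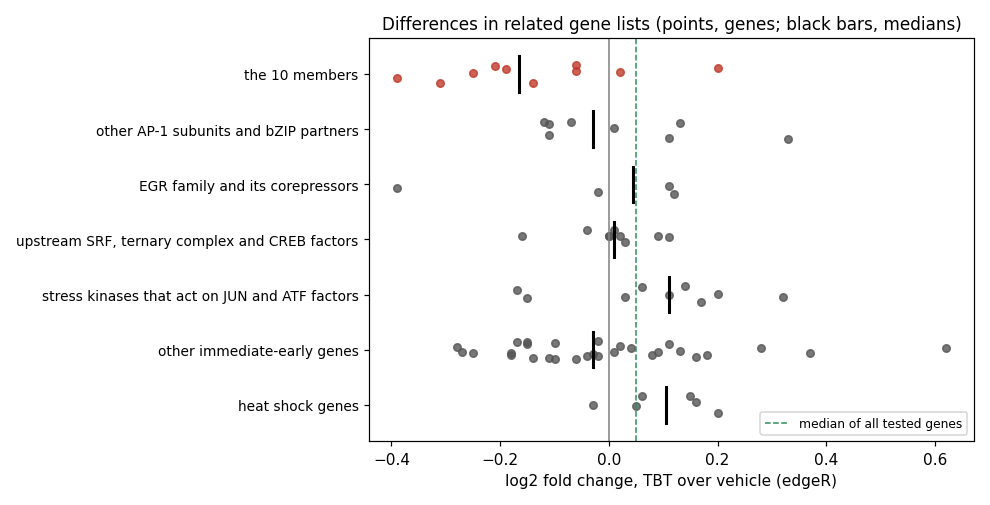
Log2 fold change of TBT over vehicle (horizontal axis) for the 10 members and for the tested genes of 6 related lists; points are genes, black bars are list medians and the dashed line is the median of all tested genes (0.05). The median of the members is -0.17 and those of the lists lie between -0.03 and 0.11.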

How the data were processed

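The deposited table holds raw counts of 55536 genes in 15 animals. Trim Galore, HISAT2, featureCounts and the build mm10 are named per the submitters' processing notes; the versions, the annotation and whether counting used strand are not known from them. Per the labels' protocols, RNA was DNase-treated and prepared with a stranded total RNA kit.

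Columns were matched to animals by the sample descriptions. Depth was 6.03 M to 11.99 M counts a library, which limits the precision of the scarce members. No library repeated another (chi-square per gene of 10.9 or more within a group). The p-values of the group comparison set the difference against the spread between these animals, each taken as independent. TBT was given to the mothers and litters are not labelled, so any sharing of litters is not accounted for.

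The test was that of edgeR 4.0.16, run in R 4.3.3 (filterByExpr, TMM, robust quasi-likelihood fit, no covariate, Benjamini-Hochberg over 13364 genes), and intervals (95%) came from its F statistic. DESeq2 1.42.0 and limma 3.58.1 were alternatives. The fit and the correlation test were tested on simulated data. Correlations used log2 CPM (prior count 2) and 100000 permutations, or all orders within a group. Lengths and coordinates came from GENCODE M21 on GRCm38, and promoters from RefSeq, where 8 of 10 members matched. No batch is labelled.

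The members and lists were chosen with earlier results of these data known. Named were all members, and the 3 genes of each list with the smallest p at a mean of at least 1 CPM. Likeness was fixed for Fos, Jun and Egr1 (5 genes each) and added for Jund.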

Additional observations from a re-analysis of the deposited data

Results flagged for a closer look

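In 20 tests of the highest and lowest animal (10 genes in 2 groups, of which chance alone flags about 1 in 20), 2 animals stood far from the others of their group. Fosb in TBT 5 was at 3.21 CPM, against 1.48 CPM in the next TBT animal, a gap of 0.650 of the group's range. Jun in TBT 3 was at 8.70 CPM, against 6.33 CPM in the next, a gap of 0.612 of the range. Jund in TBT 2 and TBT 8 did not meet this criterion, since each of these libraries is the other's near neighbour.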

How the results depend on the processing

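No member was called under any of 25 alternatives. Over all genes DESeq2 called 19, limma-voom 22, the fit without the low-count filter 2, and the fit without TBT 2, TBT 8 and vehicle 6 called 7. Members with a higher fitted value in TBT were 2 of 10, 1 without those 3 libraries, and 1 to 3 with each library left out, where the median log2 fold change of the members ran from -0.24 to -0.11 and no genes were called. On library totals, where the median of all genes was 0.14, Fos stood at 0.0328, Btg2 at 0.0925 and Jund at -0.0119. Limma-voom gave 0.0709 for Fos, 0.0166 for Btg2 and -0.31 for Jund. Without the 3 libraries Jund stood at -0.38. Leaving out single libraries moved Fos between -0.27 and 0.18, Atf3 between -0.14 and 0.14 and Jund between -0.13 (without TBT 2) and 0.29. The cause of these changes was not tested, and Fosb, Jun, Junb, Egr1, Ier2 and Ier5 stayed below 0 throughout. Pairs past the permutation test numbered 6, 35 on library totals, 3 within TBT and 0 within vehicle, where fewer libraries were used.

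Animals of the same number deviated together in no regular way (r from -0.235 to 0.506, 1 of 7 numbers with its own partner as the best match), so the numbers were not taken to pair them. With the replicate block 1 gene was called over all genes and 0 members, with Fos at 0.049, Btg2 at 0.0024 and Jund at -0.19. Depth limits Fosb and Atf3 most, with as few as 4 and 3 counts in a library.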
